A study of Mus musculus with 7 samples.

Results

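The apolipoprotein E gene cluster of the mouse holds Apoe, Apoc1, Apoc4 and Apoc2, and its RNA was described in sorted retinal microglia (rMG) with and without laser injury of the eye. The genes were chosen by symbol in the deposited expression table of 40743 genes. Apoe (ENSMUSG00000002985), Apoc1 (ENSMUSG00000040564) and Apoc4 (ENSMUSG00000074336) have rows of their own, so 3 of 4 members were found in this way. No row carries the symbol Apoc2. The identifier of Apoc2 (ENSMUSG00000002992) appears only in the row of Gm44805 (ENSMUSG00000109350), an annotated read-through gene over Apoc4 and Apoc2, as reads that lie on either gene. The same row also includes reads listed for Gm44805 alone. That row is called Apoc2 here, and it cannot separate Apoc2 from Gm44805. The row of Apoc4 likewise includes reads listed jointly with Gm44805. All 4 members passed the filter on low values.

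The libraries came from rMG of unlasered Irf8 KO mice (3 libraries) and of Irf8 KO mice after laser coagulation (4 libraries), which ruptures Bruch's membrane and starts choroidal neovascularisation. According to the study, the lasered rMG were profiled at a single time after injury, the one at which it measured the neovascular lesions. All mice of both groups were adult, on a C57BL/6J background devoid of the Crb1 mutation, and of the genotype Cx3cr1GFP/+:Irf8-/-. The labelled genotype is a deletion of Irf8 in all cells and the replacement of 1 Cx3cr1 allele by GFP. Each library came from about 10000 cells pooled from 3 to 4 mice, sorted as CD45low CD11b+ Cx3cr1-GFP+ Ly6C- Ly6G-. From lasered mice only the central 70% of the retina was used, so laser injury and retinal region cannot be told apart. The study set Irf8 KO mice against controls, whose libraries were not analysed here, and the comparison made here is that of laser injury within Irf8 KO mice.

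Apolipoprotein E is the main lipid carrier protein of the central nervous system. It is secreted by astrocytes, Müller glia and reactive microglia, loaded with cholesterol through ABC transporters, and taken up by lipoprotein receptors. The small C apolipoproteins exchange between lipoprotein particles: ApoC-II is the obligate cofactor of lipoprotein lipase, ApoC-I inhibits lipases and receptor binding, and ApoC-IV is a minor member. In macrophages the whole cluster is a known target of the liver X receptors, nuclear receptors that sense oxysterols.

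All 4 members lie on the minus strand of chromosome 7 (GRCm38) within 27610 bases. In the direction of transcription, Apoe (19696109 to 19699188) is followed by Apoc1 (19689481 to 19692660), Apoc4 (19678083 to 19681479) and Apoc2 (19671579 to 19677941). Gm44805 (19671584 to 19681423) spans both Apoc4 and Apoc2. Its exons hold 765 bases, of which 0 lie outside the exons of Apoc2 and Apoc4. Only 141 bases of its span, the stretch between Apoc4 and Apoc2, belong to Gm44805 alone.

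The sequences directly upstream of the annotated starts are shown for the 3 of 4 members found in the RefSeq table (GRCm38.p6). The start of Gm44805, whose reads the Apoc2 row includes, lies inside Apoc4 and is not shown. Each sequence runs 5′ to 3′ on the minus strand, and capitals mark matches to the motifs listed after them. The Apoc2 line is the whole stretch between Apoc4 and Apoc2, the only part of the Gm44805 span outside both genes.
Apoe, chr7:19699189-19699438: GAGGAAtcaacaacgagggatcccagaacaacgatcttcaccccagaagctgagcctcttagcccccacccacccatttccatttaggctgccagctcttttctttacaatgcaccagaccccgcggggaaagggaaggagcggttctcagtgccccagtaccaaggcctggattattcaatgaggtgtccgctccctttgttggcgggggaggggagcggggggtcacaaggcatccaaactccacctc
Apoc4, chr7:19681480-19681710: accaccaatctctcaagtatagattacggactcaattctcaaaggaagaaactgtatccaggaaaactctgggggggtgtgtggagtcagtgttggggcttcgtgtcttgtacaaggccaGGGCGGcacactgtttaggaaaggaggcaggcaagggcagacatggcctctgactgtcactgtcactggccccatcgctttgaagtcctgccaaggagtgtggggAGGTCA
Apoc2, chr7:19677942-19678082: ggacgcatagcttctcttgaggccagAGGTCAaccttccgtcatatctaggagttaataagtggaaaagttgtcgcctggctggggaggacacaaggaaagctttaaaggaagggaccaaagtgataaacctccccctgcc

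Motifs were searched on both strands in RefSeq windows from 250 bases before to 50 after a start. Apoe had 3 such windows, and Apoc4 and Apoc2 had 1 each. Percentages are over 32851 RefSeq promoters of that length. Distances are counted from the gene coordinates given above, which need not begin at the RefSeq start. The hexamer of the liver X receptor element, AGGTCA, occurred in 16.3% of all promoters. It lay 1 base upstream of the Apoc4 start and 110 bases upstream of the Apoc2 start, and again inside the Apoc2 transcript. The PU.1 core, GAGGAA, found in 28.3% of promoters, lay 245 bases upstream of the Apoe start and once more, on the opposite strand, inside the transcript. A GC box, GGGCGG, found in 35.7% of promoters, lay 106 bases upstream of the Apoc4 start. None of these windows held TATAAA (13.6% of promoters), the interferon-stimulated response element core GAAANNGAAA (3.44%), the ETS-IRF composite GGAANNGAAA (2.72%) or the full liver X receptor repeat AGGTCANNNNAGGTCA (0.0152%). A match of the full repeat would also hold the hexamer. Such matches describe these letters in these windows and nothing further.

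Levels are given in CPM, the reads of a gene scaled to the same total in every library. Library totals were between 20427558 and 36022954 reads in unlasered and between 37133297 and 45919042 reads in lasered libraries. The smallest level these depths can show, taken as 3 reads, was 0.0653 to 0.147 CPM and covers counting error only. The least-read member, Apoc2, still had between 829 and 5066 reads per library. Irf8, the deleted gene, was listed jointly with an overlapping gene at 530, 489 and 507 CPM in unlasered libraries. In lasered libraries this entry was at 463, 465, 475 and 582 CPM. It was thus well above the smallest level in all libraries labelled Irf8 KO. The entry cannot separate Irf8 from the overlapping gene, and no control libraries were set beside it. Whether these values bear on the genotype was not tested. The microglia markers summed to between 25749 and 30779 CPM in unlasered and between 23086 and 31244 CPM in lasered libraries. Unlasered library 2 stood apart with a sum of 19896 CPM over 14 rod photoreceptor genes, and lasered libraries 1 and 2 with sums of 3877 and 6318 CPM over 5 MHC class II genes.

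Of the 4 members, 0 passed an adjusted p of 0.05 between lasered and unlasered libraries (limma, Benjamini-Hochberg adjustment over all genes), against 6.93% of the 17496 genes tested, 3.86% higher and 3.07% lower. By DESeq2, 1 member, Apoc2, was past that threshold, against 13.2% of all genes. At an unadjusted p under 0.05 in limma it was again Apoc2 alone, against 22.7% of all genes. Apoc2 was also the only one of the 4 whose lasered and unlasered libraries did not overlap, which was so for 21.0% of all genes tested. The fold changes below are on the log2(CPM + 1) scale, which understates changes of low genes, with standard errors (SE) and 95% intervals, and the median over all genes was -0.01. Fewer cells expressing a gene and less RNA per cell cannot be told apart in pooled libraries.

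Apoe had the most reads of all genes in all 7 libraries. Its level was 76428, 74700 and 51588 CPM in unlasered libraries 1, 2 and 3, and 29049, 40099, 46438 and 72350 CPM in lasered libraries 1 to 4. Lasered library 4 lay among the unlasered libraries, while the other 3 lasered libraries lay below all of them. The share of all reads that came from this single gene was thus between 5.16% and 7.64% in unlasered and between 2.90% and 7.23% in lasered libraries. The mean was 67572 ± 13870 CPM (SD, n = 3) without and 46984 ± 18374 CPM (SD, n = 4) with laser injury. The log2 fold change was -0.58 (SE 0.28, interval -1.20 to 0.04), and limma's adjusted p was 0.25. Without lasered library 4 it was -0.81 with an adjusted p of 0.0684. Müller glia and astrocyte markers, cells that also express Apoe, summed to between 436 and 790 CPM in unlasered and between 176 and 489 CPM in lasered libraries. Of the 7 markers tested, Gfap was higher and 0 were lower after laser injury, against 3.86% higher and 3.07% lower of all genes. Most of the sum came from Slc1a3 and Glul in every library. Slc1a3 had a mean of 388 CPM without and 123 CPM with laser injury, with overlapping groups (log2 fold change -2.14; limma, adjusted p = 0.155). Glul had means of 174 and 164 CPM. The lower sum thus rested mainly on Slc1a3, and the median log2 fold change of the tested markers was -0.15. The part of Müller glia and astrocytes in the Apoe level was not tested.

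Apoe reads exceeded those of the entry with the next most reads, AC034099.1, by 3.14 to 4.23 times in unlasered and by 1.85 to 4.04 times in lasered libraries. AC034099.1 itself lay between 15722 and 18475 CPM throughout. Apoe made up between 96.4% and 98.6% of the reads of the cluster. The cluster as a whole summed to 68706 ± 14226 CPM (SD, n = 3) in unlasered and 48222 ± 18454 CPM (SD, n = 4) in lasered libraries (two-sided exact permutation test, p = 0.114). The 3 C members together summed to 1134 ± 435 CPM and 1238 ± 115 CPM, with ranges that overlapped (two-sided exact permutation test, p = 0.686, n = 3 and 4).

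**Figure D1:**
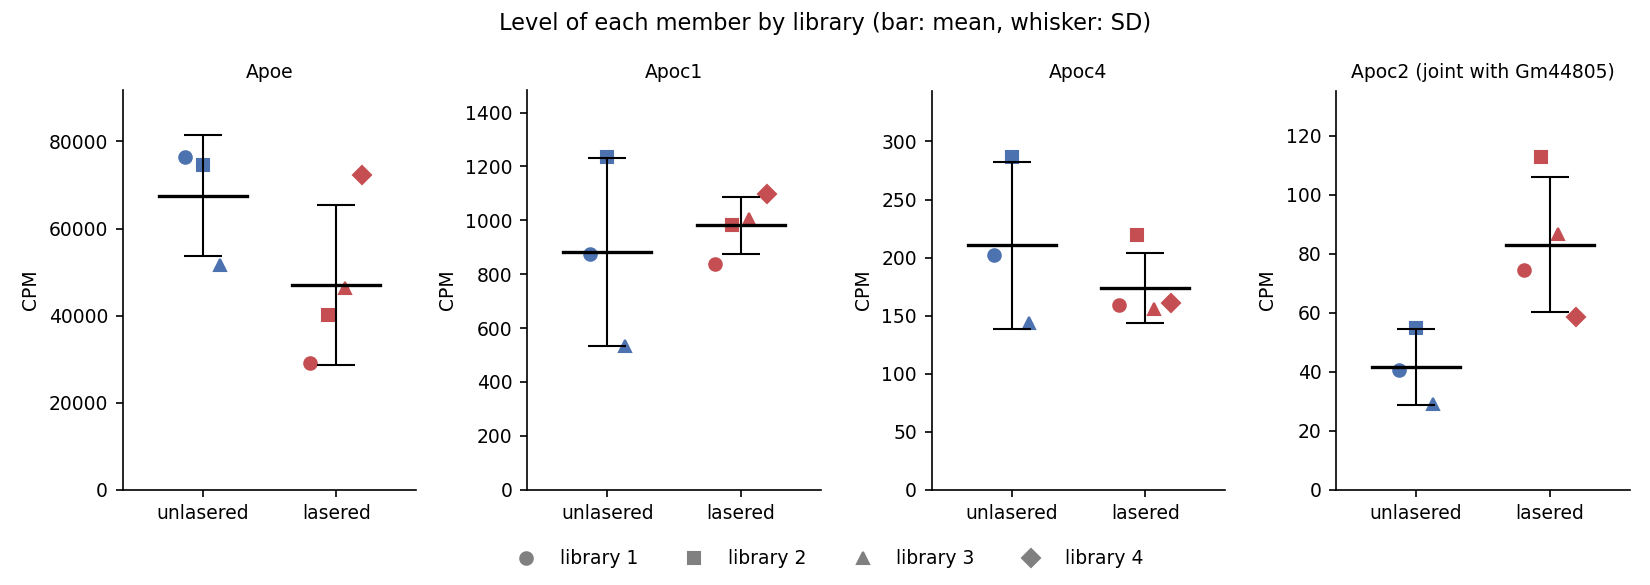
Level of each member in CPM (vertical axes from 0, each with its own scale) in 3 unlasered and 4 lasered libraries. Symbols are libraries, horizontal bars means and whiskers SD; only for Apoc2 do all lasered libraries (58.5 to 113 CPM) lie above all unlasered ones (29.2 to 54.8 CPM).

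Apoc1, the lipase inhibitor, was read at 876, 1235 and 535 CPM in unlasered libraries 1, 2 and 3. In lasered libraries 1 to 4 its level was 839, 984, 1004 and 1098 CPM. The lasered libraries lay inside the range of the unlasered ones and close to each other: the coefficient of variation was 10.9% with and 39.7% without laser injury. The log2 fold change was 0.23 (SE 0.24, interval -0.32 to 0.78; limma, adjusted p = 0.638). The sign rested on unlasered library 3, without which the log2 fold change was -0.090. Within the lasered group, Apoc1 and Apoe ordered the libraries alike, with library 4 highest and library 1 lowest.

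Apoc4 was read at 202, 287 and 143 CPM in unlasered libraries 1, 2 and 3. In lasered libraries 1 to 4 its level was 159, 219, 155 and 161 CPM, all inside the unlasered range. Lasered library 2 stood above the other 3, which lay between 155 and 161 CPM. The log2 fold change was -0.23 (SE 0.23, interval -0.75 to 0.28; limma, adjusted p = 0.598). It was 0.015 without unlasered library 2, the library with the highest Apoc4 level and the highest rod sum.

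Apoc2, the lipoprotein lipase cofactor, read jointly with Gm44805, had the largest difference of the 4 members. Its level was 40.6, 54.8 and 29.2 CPM in unlasered libraries 1, 2 and 3, and 74.5, 113, 86.6 and 58.5 CPM in lasered libraries 1 to 4. All 4 lasered libraries lay above the highest unlasered library, with lasered library 4 only just above it. The mean was 41.5 ± 12.8 CPM (SD, n = 3) without and 83.1 ± 22.9 CPM (SD, n = 4) with laser injury. The log2 fold change was 0.99 (SE 0.26, interval 0.41 to 1.57), or 1.99-fold. In limma the unadjusted p was 0.00394 and the adjusted p 0.0539, past neither the threshold used here nor the fold threshold of the study's methods. The adjusted p was under 0.05 with DESeq2 (0.00374), with median-of-ratios scaling (0.0354), without unlasered library 2 (0.0454) and without lasered library 4 (0.0466), and it ranged from 0.00374 to 0.131 over all alternatives.

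Marker lists of cell types and cell states were summed in each library. Counts of called markers stand against 3.86% higher and 3.07% lower of all genes tested. The study reported Mrc1, of the border macrophage list, as raised in Irf8-deficient rMG themselves. It named Cd74, of the MHC class II list, as an activation marker of rMG. These sums thus cannot separate other cells from the state of the sorted rMG. Summed MHC class II levels were 200, 62.9 and 431 CPM in unlasered libraries 1, 2 and 3, and 3877, 6318, 539 and 131 CPM in lasered libraries 1 to 4. Lasered library 2 was thus highest for both MHC class II genes and Apoc2, while lasered library 4 had a sum inside the unlasered range. Lasered libraries 1 and 3 went the other way. Apoc2 was higher in library 3 (86.6 CPM) than in library 1 (74.5 CPM), while the MHC class II sum was far lower. The dendritic cell list summed to between 24.9 and 48.3 CPM in unlasered and between 37.3 and 177 CPM in lasered libraries. Of its 7 tested genes, 1 was higher, the chemokine gene Ccl22, which met the filter on low values through the lasered libraries alone. Border macrophage genes summed to between 2213 and 2759 CPM in unlasered and between 1377 and 1594 CPM in lasered libraries, with 2 of 7 tested genes lower, Pf4 and Ms4a7. The median log2 fold change of this list was -0.02, and Cbr2, Folr2 and F13a1, none of them called, had positive values of 1.06, 0.34 and 0.13. The rod list summed to between 2201 and 19896 CPM in unlasered and between 318 and 991 CPM in lasered libraries, and 13 of its 14 genes were lower. In the remaining lists, 1 of 4 endothelial and pericyte genes was higher (Cspg4), 1 of 8 immediate early genes lower (Nr4a1), and 0 of 5 monocyte, 0 of 4 pigment epithelium, 0 of 6 inner neuron, 0 of 11 microglia and 0 of 5 MHC class II genes were called. No marker of these lists was at 0 in all libraries. Their part in the levels of the cluster's genes was not tested. Leaving the rod list out of the library totals changed only the scaling (Apoc2 log2 fold change 0.98) and does not test that part.

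**Figure D2:**
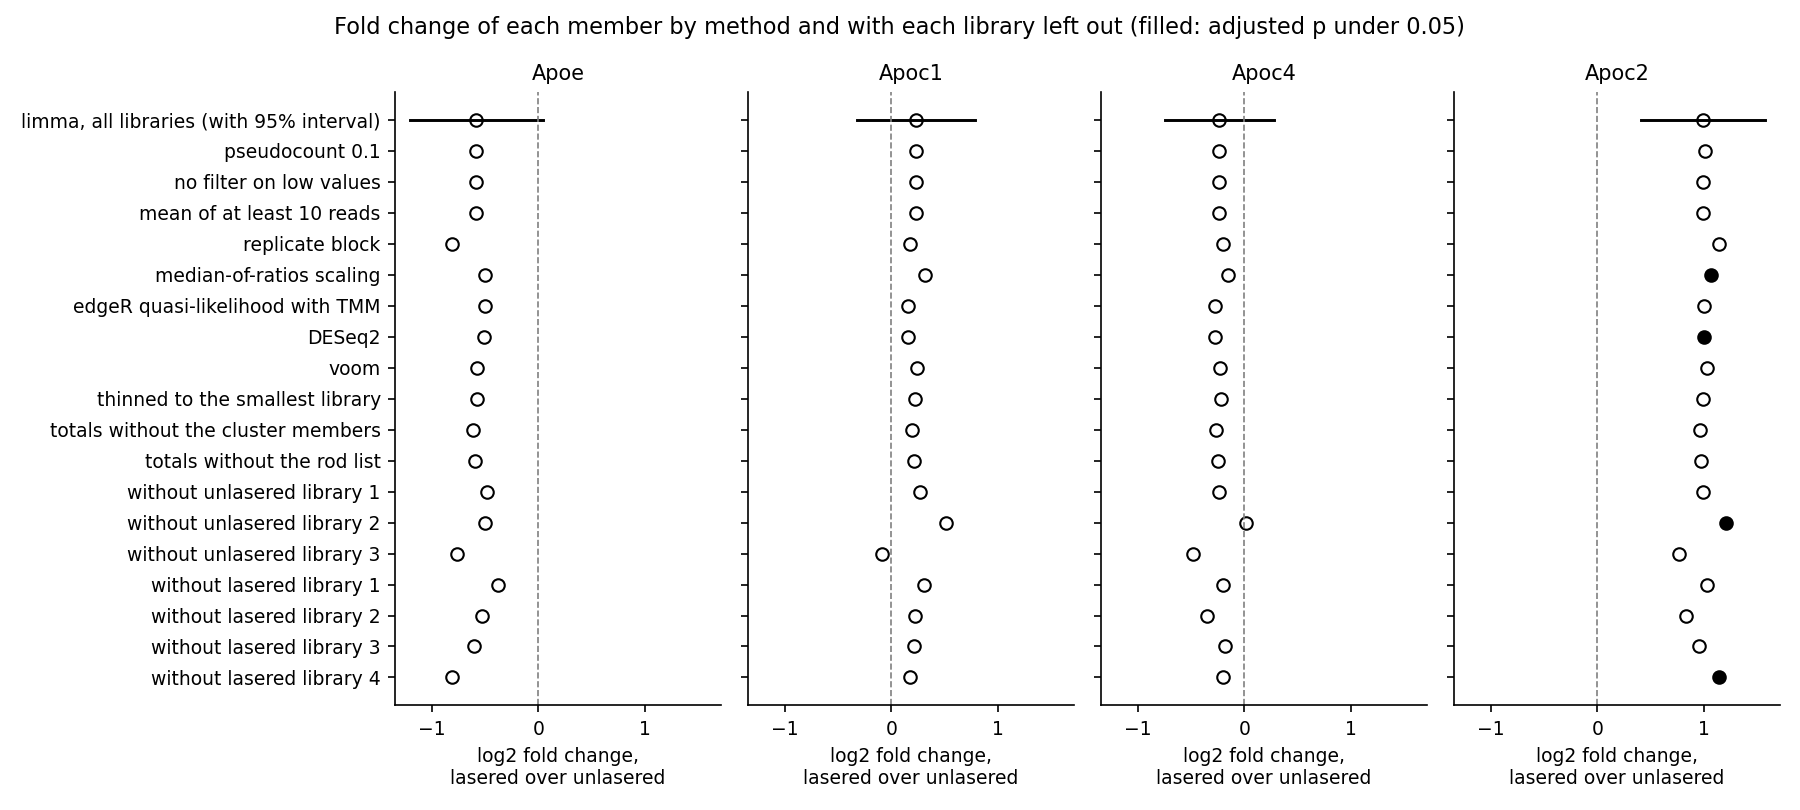
Log2 fold change of each member, lasered over unlasered (horizontal axis), by method, filter, scaling and with each library left out (vertical axis). Filled circles have an adjusted p under 0.05 and the line on the first entry is its 95% interval; Apoc2 stays between 0.76 and 1.21, whereas Apoc1 and Apoc4 each cross 0 when 1 unlasered library is left out.

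Ratios between members within a library do not depend on the library total. All 6 pairs were compared with two-sided exact permutation tests of the log2 ratios, for which 3 against 4 libraries cannot give a p below 0.0571. After adjustment over the 6 pairs, p-values lay between 0.114 and 0.4, so this design could not take any pair past 0.05. Of the 6 pairs, 3 did not overlap between the groups. The share of all gene pairs for which this is so was not computed.

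The ratio with the least spread among unlasered libraries was that of the adjacent genes Apoc4 and Apoc2. Both rows include reads listed jointly with Gm44805, so neither side of this ratio is free of that gene. There were 4.97, 5.23 and 4.92 Apoc4 reads per Apoc2 read in unlasered libraries 1, 2 and 3, and 2.14, 1.94, 1.80 and 2.75 in lasered libraries 1 to 4. The groups were far apart, with the lowest unlasered ratio well above the highest lasered one. The ratio was 2.37-fold lower after laser injury, a log2 difference of -1.24 (exact permutation test, p = 0.0571, the smallest possible; n = 3 and 4). Among the unlasered libraries both genes were highest in library 2 and lowest in library 3, so that their levels varied widely there and their ratio little.

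Against Apoe, the mean ratio of all 3 C members was higher after laser injury, and only the Apoc2 ratios did not overlap. The 3 ratios share Apoe, with its log2 fold change of -0.58, as denominator and are not separate results. Apoc4 itself had a log2 fold change of -0.23. There were 0.0531, 0.0733 and 0.0566 Apoc2 reads per 100 Apoe reads in unlasered libraries 1, 2 and 3. In lasered libraries 1 to 4 there were 0.256, 0.281, 0.186 and 0.0809, a 3.01-fold higher ratio (log2 difference 1.59, exact permutation p = 0.0571). Lasered library 4, with the highest lasered Apoe and the lowest lasered Apoc2 level, came close to unlasered library 2. Apoc1 reads per 100 Apoe reads were 1.15, 1.65 and 1.04 in unlasered libraries and 2.89, 2.45, 2.16 and 1.52 in lasered libraries (log2 difference 0.81, exact permutation p = 0.114). Here lasered library 4 fell below unlasered library 2. The corresponding log2 difference for Apoc4 was 0.35 (exact permutation p = 0.4), with overlap.

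Among the C members, the ratio of Apoc1 to Apoc4 was higher in every lasered library than in any unlasered one; this pair and the next were compared after the values had been seen. There were 4.34, 4.31 and 3.73 Apoc1 reads per Apoc4 read in unlasered libraries 1, 2 and 3, and 5.26, 4.49, 6.46 and 6.82 in lasered libraries 1 to 4. The groups did not overlap, but lasered library 2 was close to unlasered library 1 (log2 difference 0.46, exact permutation p = 0.0571). Apoc1 per Apoc2 had a log2 difference of -0.78 and overlapping groups (exact permutation p = 0.114).

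**Figure D3:**
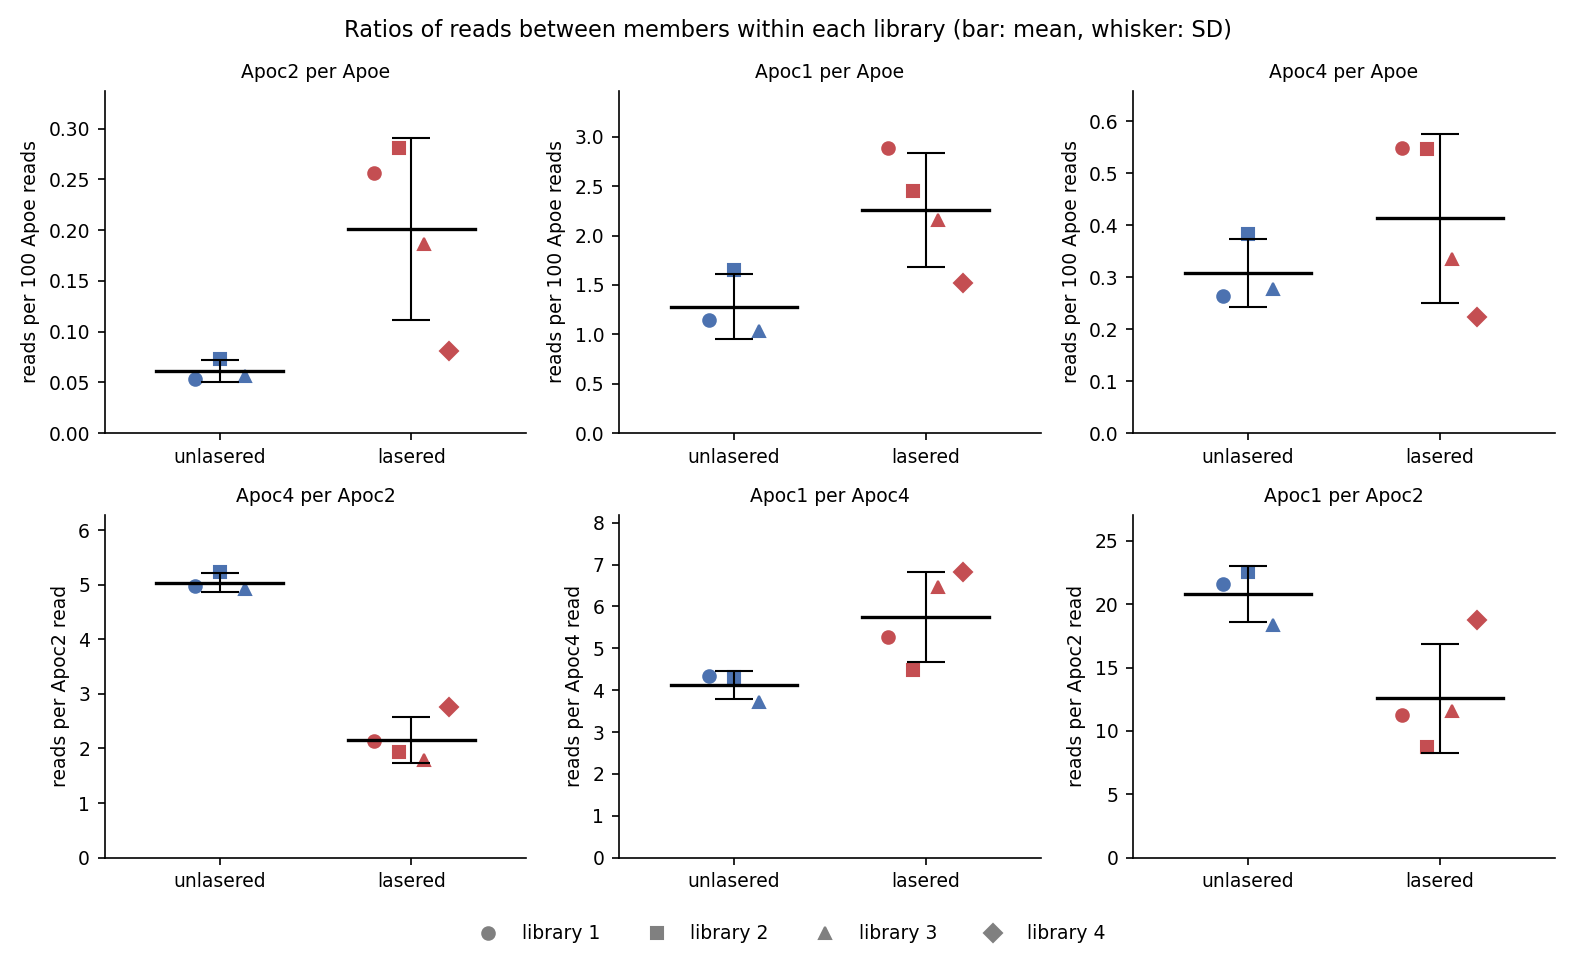
Ratios of reads between 2 members within each library (vertical axes from 0) for 3 unlasered and 4 lasered libraries. Symbols are libraries, bars means and whiskers SD; Apoc4 per Apoc2 lies between 4.92 and 5.23 in unlasered and between 1.80 and 2.75 in lasered libraries.

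To compare levels between genes, CPM were divided by the length of all exons of a gene in kilobases (kb): 2138 bases for Apoe, 744 for Apoc1, 2537 for Apoc4 and 813 for Apoc2. Apoe then had a mean of 31605 CPM per kb in unlasered and 21976 CPM per kb in lasered libraries. Apoc1 followed with 1185 and 1319 CPM per kb. Ranges of these 2 genes were far from each other and from the rest. The last places changed with the group: Apoc4 had 83.0 and Apoc2 51.1 CPM per kb in unlasered libraries, against 68.5 and 102 CPM per kb in lasered ones. The ranges of these neighbours over libraries overlapped in both groups, although within each single library the order was that of its group. The order depended on the length used: per kb of gene span, Apoc4 stood above Apoc2 in both groups, with 51.2 against 13.1 CPM per kb in lasered libraries. The Apoc2 row holds only reads listed jointly with Gm44805 or for Gm44805 alone. Of the Apoc2 exons, 167 bases lie outside the exons of that gene. Levels per kb of Apoc2 exon may thus be understated, while the reads of Gm44805 alone would raise them. Neither part was measured.

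The genes around the cluster were examined next. Within 100 kb lie 13 other annotated genes, of which 12 were listed and 9 tested. Of these, 1 was higher and 0 were lower after laser injury, with a median log2 fold change of 0.03, against 3.86% higher and 3.07% lower of all genes. The gene called was Relb, which encodes an NF-kB subunit. Its level was 33.3, 35.8 and 39.4 CPM in unlasered and 49.5, 60.4, 49.7 and 53.1 CPM in lasered libraries, with no overlap (log2 fold change 0.54, limma, adjusted p = 0.0477). This call was lost in 12 of 18 alternatives, among them voom (adjusted p = 0.0581). Tomm40, the neighbour next to Apoe that encodes the mitochondrial import channel, had a log2 fold change of -0.15. Clptm1, next to Apoc2 on the other side, had one of -0.04, and neither was called.

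**Figure D4:**
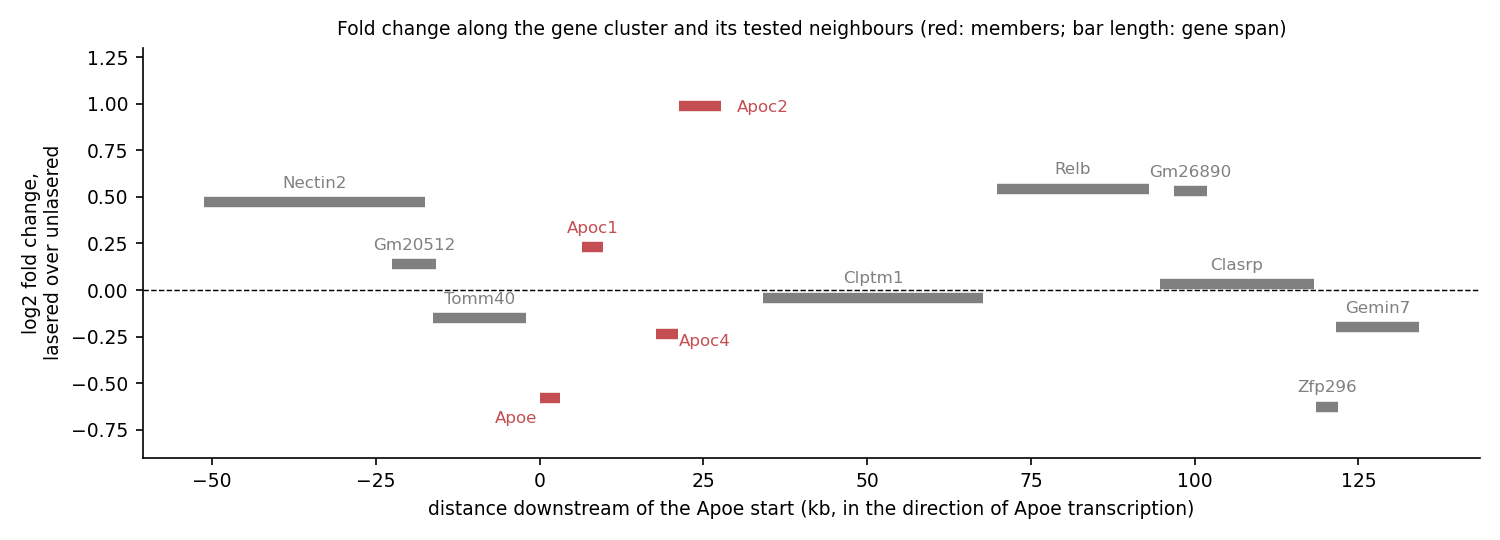
Log2 fold change, lasered over unlasered (vertical axis), of the 4 members and the 9 tested genes within 100 kb against distance from the Apoe start in kb (horizontal axis, downstream of Apoe to the right). Bar length is the gene span; the members run from -0.58 for Apoe to 0.99 for Apoc2, and both genes flanking the cluster lie near 0.

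The proteins that act on lipoproteins were described with 5 short gene lists, whose counts stand against 3.86% higher and 3.07% lower of all genes tested. Among lipases and lipoprotein remodelling genes, 2 of 8 tested were higher and 0 lower, with a median log2 fold change of 0.29 against -0.01 over all genes. The first was Lpl, the lipoprotein lipase that ApoC-II activates. Lpl was at 31.4, 1.69 and 10.3 CPM in unlasered and at 80.1, 76.7, 86.2 and 65.4 CPM in lasered libraries. All lasered libraries were well above the unlasered ones, which differed widely among themselves (log2 fold change 2.96, SE 0.66, limma, adjusted p = 0.0334; edgeR, 0.0957). The log2 fold change was 3.81 without unlasered library 1 and 2.02 without unlasered library 2. The second was Lipg, endothelial lipase, at 0.245, 0.467 and 0.666 CPM in unlasered and 5.73, 4.45, 6.69 and 1.67 CPM in lasered libraries (log2 fold change 1.85, limma, adjusted p = 0.0196). Lipg met the filter on low values through the lasered libraries alone, so its call adds no support to the count, and with no filter its adjusted p was 0.0537. Genes that restrain or assist lipoprotein lipase did not pass: Angptl4, an inhibitor, had a log2 fold change of 1.01 (limma, adjusted p = 0.258) and Lmf1, its folding factor, one of 0.17. Lipa, the lysosomal acid lipase, did not overlap between groups but had an adjusted p of 0.19 in limma. Lipc, whose entry is shared with an overlapping gene, had a negative value of -0.44 and was not called (limma, adjusted p = 0.363).

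Of the lipoprotein receptors and their regulators, 0 of 16 tested were higher and 1 lower, with a median of 0.11. Lrp2, megalin, a receptor of absorptive epithelia, fell by 1.04 on the log2 scale at levels of at most 2.40 CPM (limma, adjusted p = 0.014). It met the filter on low values through the unlasered libraries alone, so its call adds no support to the count, and with no filter its adjusted p was 0.0351. Trem2 and Lrp1 were not called: Trem2, a microglial receptor that binds Apoe, had a log2 fold change of 0.12, and the clearance receptor Lrp1 one of 0.48 (limma, adjusted p = 0.396). Vldlr and Lrp4, also not called, had negative values of -1.92 and -0.77.

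Of the liver X receptors, their partners and cholesterol efflux genes, 2 of 13 tested were higher and 0 lower, with a median of 0.07. Abcg1, a cholesterol exporter, was at 109, 117 and 97.6 CPM in unlasered and 222, 165, 164 and 140 CPM in lasered libraries (log2 fold change 0.66, limma, adjusted p = 0.047). Ch25h, which makes the oxysterol 25-hydroxycholesterol, was at 78.3, 41.7 and 45.8 CPM in unlasered and 90.5, 129, 161 and 101 CPM in lasered libraries (log2 fold change 1.13, limma, adjusted p = 0.0364). In both genes every lasered library was above every unlasered one. The receptors themselves, Nr1h2 and Nr1h3, had log2 fold changes of 0.04 and 0.31, and the exporter Abca1 one of 0.51 with overlapping groups, none of them called. Other genes of the list had negative values and were not called either: Abcg4 (-2.26), Srebf1 (-0.44), Cyp27a1 (-0.30), Rxrg (-0.22) and Lpcat3 (-0.13).

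Of the endosomal cholesterol and lipid storage genes, 1 of 8 tested was higher and 0 were lower, with a median of 0.22. This was Nceh1, a cholesterol ester hydrolase, at a log2 fold change of 0.64 (limma, adjusted p = 0.0467). The lipid droplet gene Plin2 had one of 0.12 and was not called. Of 12 other apolipoprotein genes, 10 were listed and 3 passed the filter (Apob, Apoh and Clu), of which 0 were called. Clu, clusterin, the highest of them, reached at most 26.9 CPM. The entries of Abcg1 and Nceh1 include reads shared with an overlapping gene. In the 5 lists together, the calls for 5 of the 6 named genes were lost in 6 to 10 of 18 alternatives each, and that for Lrp2 in 1 of 15, as given in the closing section.

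**Figure D5:**
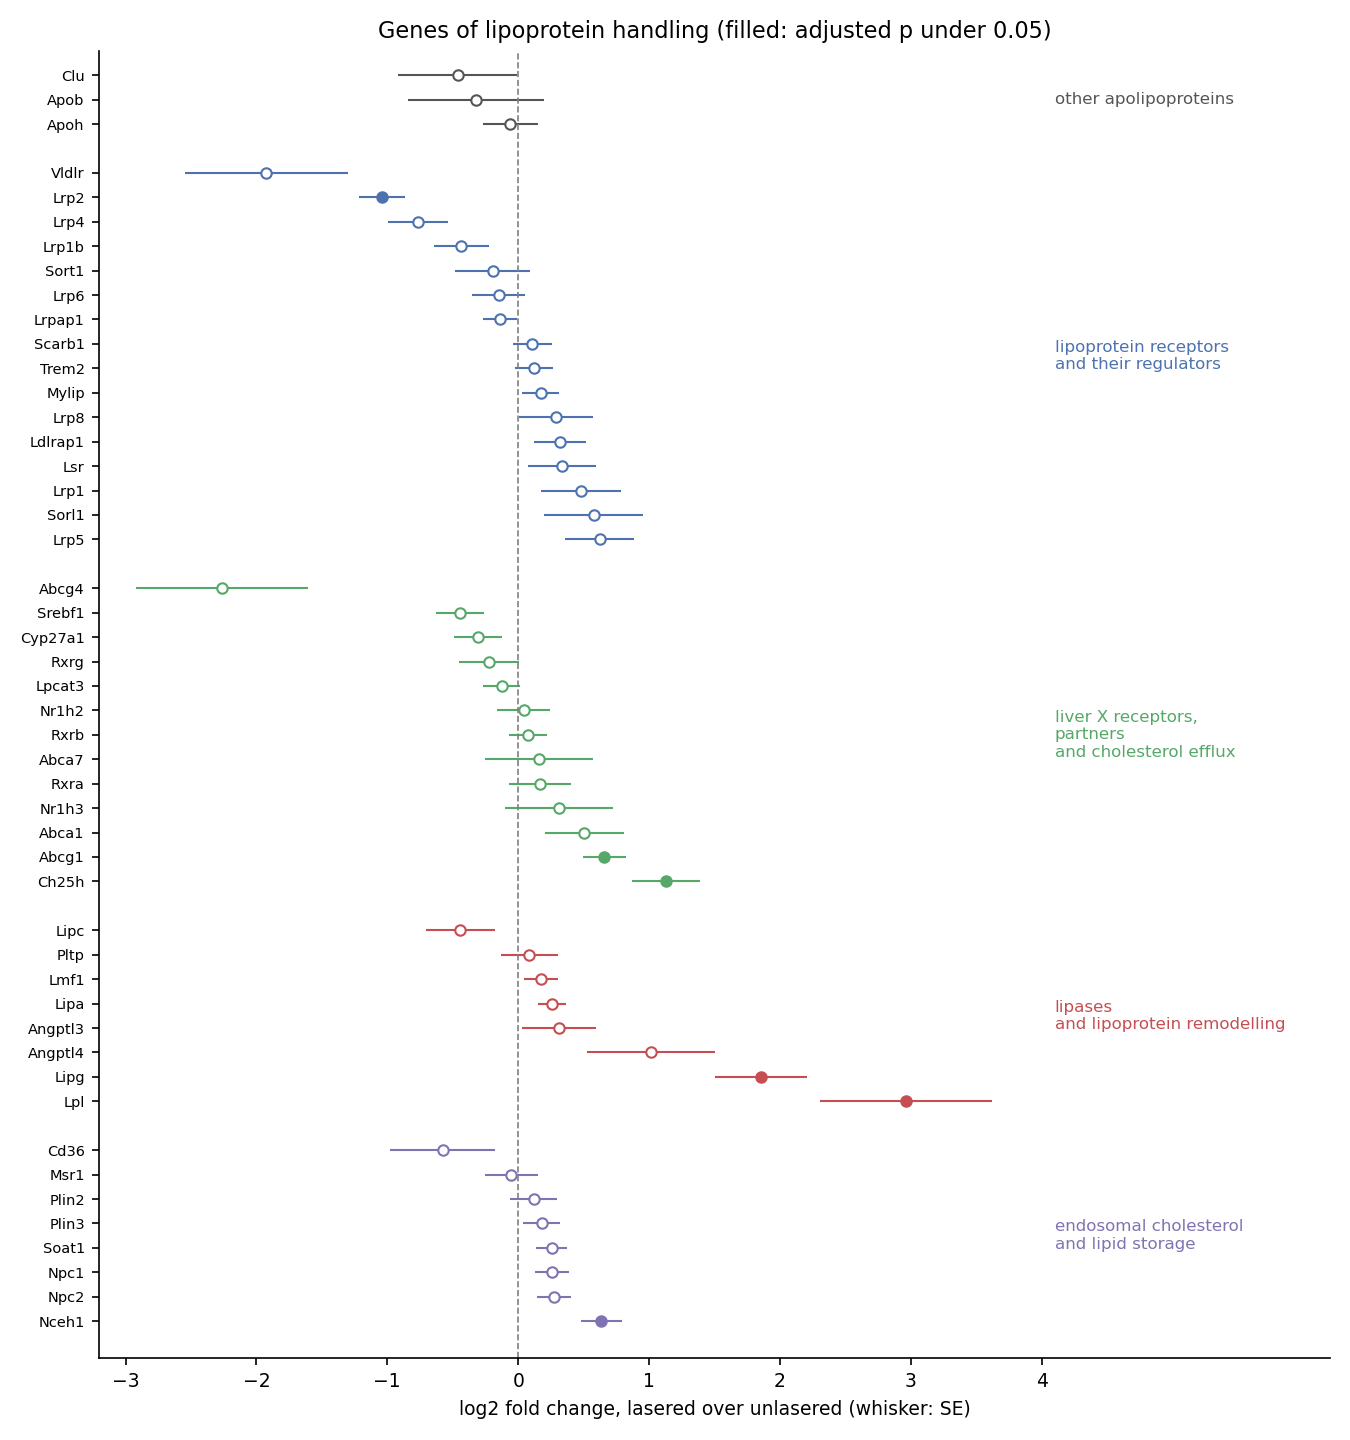
Log2 fold change, lasered over unlasered (horizontal axis, whiskers SE), of each tested gene in 5 lists of lipoprotein handling. Filled circles have an adjusted p under 0.05: Lpl, Lipg, Ch25h, Abcg1 and Nceh1 to the right of 0, Lrp2 to the left.

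Finally, the genes with the most similar pattern over the 7 libraries were listed for each member, among 10284 genes with a mean of at least 10 CPM, by Pearson correlation (r) of log2(CPM + 1). The 7 points share libraries, depth and groups, and r serves only as a description. Apoe was most like Pqbp1 (r = 0.99), then Cops7a (0.97) and Mid1ip1 (0.97). Apoc1 was most like Fam162a (0.99), Dnpep (0.98) and Smim19 (0.96), and Apoc4 most like Mpv17 (0.99), Naa38 (0.98) and AC153368.1 (0.98). For Apoc2 these were Cdk2ap1 (0.99), Gm12184 (0.99) and AC164426.2 (0.99). No member was among the top 3 of another. Between members, r was highest for Apoc1 and Apoc4 (0.62) and for Apoc1 and Apoc2 (0.58), and lowest for Apoe and Apoc2 (-0.51). It was 0.39 for Apoe and Apoc4, 0.30 for Apoe and Apoc1 and 0.18 for the adjacent pair Apoc2 and Apoc4.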

How the data were processed

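RNA of sorted rMG was reverse transcribed with a SMARTer v4 kit, which does not mark strand, and sequenced from Nextera XT libraries. According to the study's methods and the submitters' processing notes, adapters and duplicate reads were removed (cutadapt, FastUniq), reads were mapped with bowtie2 to GRCm38 and counted per gene of annotation version 90 with HTSeq. Duplicate removal by sequence can also remove identical reads of different molecules, which matters most for short abundant RNAs such as Apoe. The authors' columns carry the heading TPM, yet the deposited numbers are CPM (counts scaled to the library total): whole reads were recovered for 100% of values (tolerance 0.02 reads), so gene length was not accounted for by the authors. Of the listed genes, 4492 have entries shared with an overlapping gene. Coordinates were taken from GENCODE M21 (GRCm38), and upstream sequences from RefSeq.

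Lasered and unlasered libraries were compared on log2(CPM + 1) with limma 3.58.1 (R 4.3.3; trend, robust), keeping the 17496 genes that reached 1 CPM in 3 or more libraries, with two-sided tests and Benjamini-Hochberg adjustment. The test was tested on simulated data. Single values were compared with exact permutation tests (scipy 1.17.1). P-values measure the spread between pooled libraries. Alternatives used edgeR 4.0.16, DESeq2 1.42.0, voom, other scalings and filters, thinned reads, and each library left out. The members and lists were chosen with earlier results of these data known. Named genes are the members, Irf8, list genes with an adjusted p under 0.05, genes within 100 kb and the 3 most correlated genes per member. From the lists, 1 gene was taken out and is not reported here. Other list genes, markers and AC034099.1 were named after their values were seen. The samples were grouped by the laser treatment in their labels. The study's thresholds (a group mean of 100 or more and a log2 fold change over 1.5) were read on the CPM scale.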

Additional observations from a re-analysis of the deposited data

Results flagged for a closer look

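Among 25 levels and ratios examined in the 4 lasered libraries, 2 had a single library far from the other 3 by Dixon's test, for which chance gives about 1 in 20. Apoc4 was at 219 CPM in lasered library 2, against 155 to 161 CPM in the others. Irf8 was at 582 CPM in lasered library 4, against 463 to 475 CPM in the others. Lasered library 4 was also the lasered library with the highest Apoe and the lowest Apoc2 level. Groups of 3 were not examined in this way.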

How the results depend on the processing

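Apoe and Apoc2 kept their direction under all 18 alternatives, and Apoc1 and Apoc4 under 17 of 18. With each library left out, log2 fold changes ranged from -0.81 to -0.38 for Apoe, from -0.090 to 0.51 for Apoc1 (below 0 without unlasered library 3), from 0.76 to 1.21 for Apoc2 and from -0.48 to 0.015 for Apoc4 (above 0 without unlasered library 2). Apoc2 passed the threshold at 1.07 with median-of-ratios scaling and at 1.00 with DESeq2, and without unlasered library 2 or lasered library 4. The 6 ratios kept their sign in all 9 alternatives each. Genes called higher and lower numbered 676 and 537, but 212 and 173 with no filter on low values, where 38566 genes were tested, 1177 and 1141 with DESeq2, and 150 to 815 and 114 to 433 with each library left out, lowest without lasered library 2; leaving out any library except unlasered library 3 moved at least one of these counts by over 1.5 times. With the replicate number as a block, 2 and 1 genes were called, and log2 fold changes were -0.81 for Apoe, 0.17 for Apoc1, 1.14 for Apoc2 and -0.20 for Apoc4. Equal numbers did not pair the libraries (correlations of deviations -0.18, -0.13 and -0.02), and lasered library 4, with no partner, drops out of that fit. Calls were lost in 10 of 18 alternatives for Abcg1, 9 for Nceh1, 8 for Lpl and Ch25h, 6 for Lipg, 12 for Relb and, of 15, 1 for Lrp2, always including the block, with no change of direction. With count models, which add no pseudocount of 1, log2 fold changes were up to 3.31 for Lipg and down to -1.97 for Lrp2 (DESeq2). Leaving out single libraries ended the call in 6 of 7 cases for Abcg1, Ch25h, Nceh1 and Relb, in 5 for Lpl, 4 for Lipg and 0 for Lrp2, where 4 such fits were possible. The log2 ratio of Apoc4 over Apoc2 per kb was 0.70 in unlasered and -0.58 in lasered libraries, 0.82 in unlasered libraries with the longest transcript as length, and 3.25 and 1.97 with gene span. At an adjusted p under 0.1, 2 in place of 1 of the lipoprotein receptors and their regulators were called, and 3 in place of 2 of the liver X receptor and efflux genes, the added one, Abcg4, being lower (log2 fold change -2.26, adjusted p = 0.076). The causes were not tested. Leaving out joint entries was not run, since the table merges them with the other reads. Each member had at least 829 reads per library, so counting error was small beside the spread between libraries.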
